A study of Arabidopsis thaliana with 4 samples.

Results

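Cutin is the polyester that, with waxes, forms the cuticle over the plant epidermis. Its monomers are made in epidermal cells: fatty acids are activated to acyl-CoA thioesters, hydroxylated by cytochrome P450 enzymes and joined to glycerol by acyltransferases, after which transporters of the ABCG family carry cuticle lipids out to the wall, where the polymer is assembled. The 10 Arabidopsis thaliana genes described here were chosen by locus and cover these steps: LACS2 for activation, CYP86A4 and CYP77A6 for hydroxylation, GPAT4, GPAT6, GPAT8 and DCR for acyl transfer, ABCG11 for export, BDG1 for assembly in the wall and SHN1 as a regulator. All 10 were among the 37051 loci of the count table, and 9 had enough reads to be tested.

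Messenger RNA was measured in funiculi, the stalks that attach seeds to the fruit wall, from flowers at stage 17, after fertilisation. The comparison was between seedstick (stk) mutants, which lack normal function of the MADS-box transcription factor STK, and wild-type plants of the Columbia ecotype, with 2 biological replicates per genotype and 100 funiculi pooled in each. All plants grew at 22 °C with 16 h of light and 8 h of dark. No stk allele is given in the labels. STK (AT4G09960) transcripts were read at 238 and 326 CPM (read counts scaled to a common library size, with sizes adjusted by the TMM method) in stk and at 374 and 555 CPM in wild type, so a whole-gene count does not check the mutation. The question addressed is whether transcripts for cutin synthesis and export depend on STK in the funiculus.

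Library totals were 4033589 and 12099218 counts in stk and 5757066 and 10229588 counts in wild type. Both replicate 2 libraries were thus deeper than both replicate 1 libraries, and the part of depth in the values below was not tested. The libraries did not sort by genotype. Across tested genes, Pearson's r of log2 CPM was 0.777 between the stk libraries, 0.753 between the wild-type libraries and 0.878 between replicate 2 of stk and replicate 2 of wild type, a description across genes. Marker genes fixed by list gave the tissue context. UMAMIT14 (AT2G39510), an amino acid exporter of the funiculus, was read at 71.7 and 88.5 CPM in stk and 257 and 130 CPM in wild type. UMAMIT11 (AT2G40900), of the same list, stood at 79.7 and 70.2 CPM in stk and at 146 and 34.2 CPM in wild type. Its values overlapped between genotypes. The 8 embryo and endosperm markers summed to 25.8 and 1.74 CPM in stk and to 164 and 1.47 CPM in wild type, with ALE1 at 0 in every library, so the replicate 1 libraries held most of these reads. The 5 xylem markers summed to 1201 and 151 CPM in stk and to 207 and 68.4 CPM in wild type. Their part in the values below was not tested.

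Of the 10 cutin genes 9 were read in every library, SHN1 being the exception, and no difference between stk and wild type was detected. None of the 9 tested members passed edgeR's quasi-likelihood test at a Benjamini-Hochberg adjusted p of 0.05, where 0.00553% of all 18092 genes tested did, and none had an unadjusted p under 0.05, where 3.36% of all genes did. DESeq2 and limma-voom called none of them either, against 0.903% and 0.205% of all genes adjusted. Log2 fold changes (stk over wild type) lay between 0.0062 for CYP77A6 and 0.48 for CYP86A4, with a median of 0.14 beside a median of -0.075 over all genes tested. In none of the 9 did the stk values lie wholly apart from the wild-type values, which happened in 32.4% of all genes. Fewer epidermal cells in a sample and less RNA per cell cannot be told apart in these bulk libraries.

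**Figure D1:**
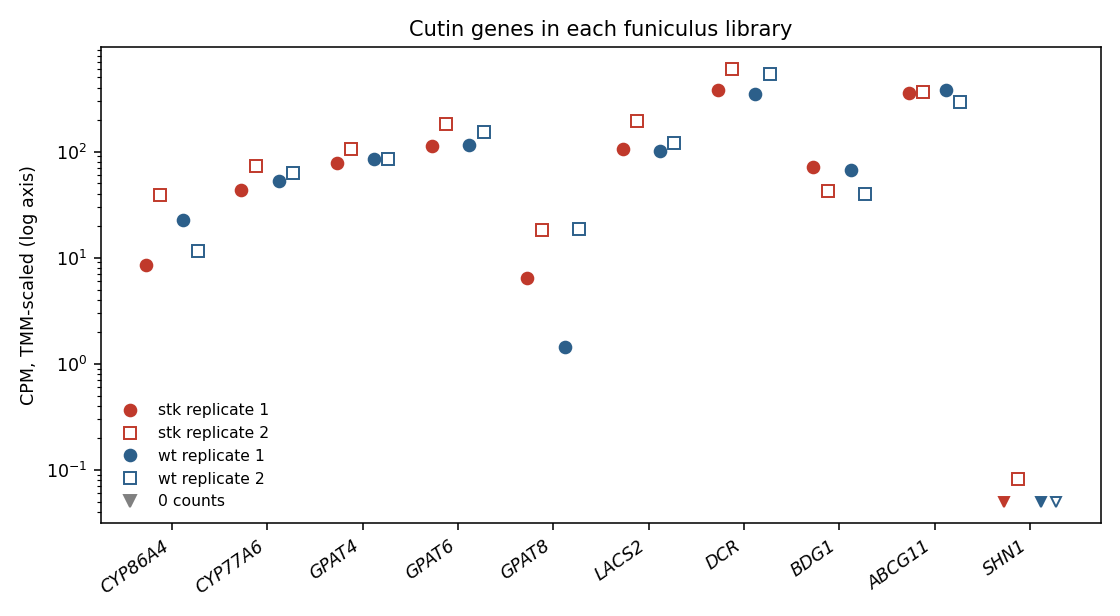
CPM on a log axis in each library for the 10 cutin genes, with stk points left of wild-type points, filled circles for replicate 1, open squares for replicate 2 and triangles for 0 counts. The genotypes overlap for all 9 tested genes, GPAT8 is lowest in wild-type replicate 1 at 1.44 CPM, and SHN1 has 1 count in all.

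The intervals of these differences varied in width. For 7 genes, namely CYP77A6, GPAT4, GPAT6, LACS2, DCR, BDG1 and ABCG11, the upper 95% limit of the ratio of stk to wild type lay between 1.997 (ABCG11) and 2.79 (LACS2), and the lower limit between 0.478 (BDG1) and 0.664 (LACS2). Each interval is that of a single gene and is not adjusted for the number of genes. For CYP86A4 the interval of the ratio ran from 0.332 to 5.82 and for GPAT8 from 0.138 to 11.1, so large changes of these genes are within the error. The standard error of the log2 fold change had a median of 0.45 over the 9 genes, beside 0.71 over all genes tested.

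**Figure D2:**
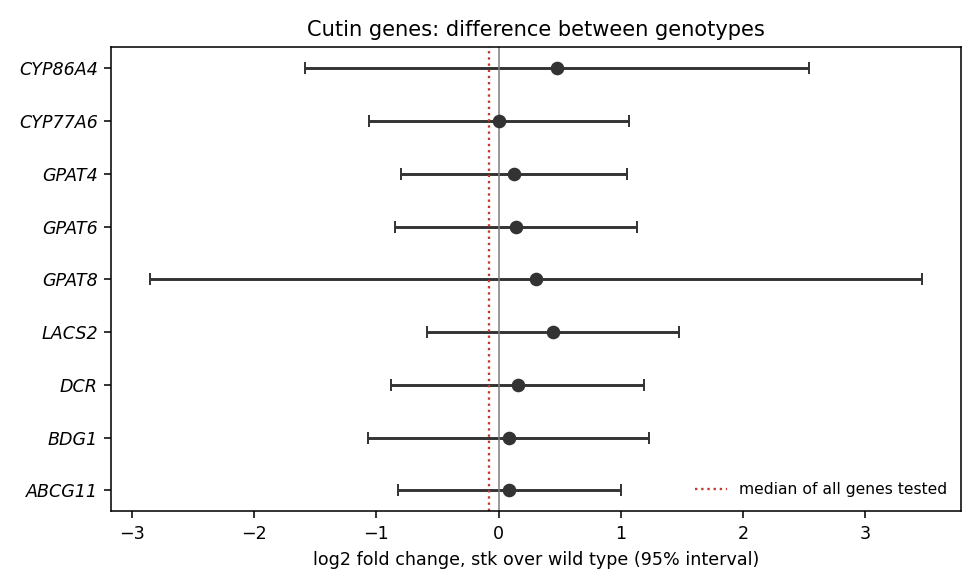
Log2 fold change of stk over wild type with its 95% interval for the 9 tested cutin genes, and the median of all genes tested as a dotted line. Every interval includes 0, the narrowest being that of ABCG11 (-0.82 to 0.998) and the widest that of GPAT8 (-2.85 to 3.47).

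LACS2 (AT1G49430) encodes a long-chain acyl-CoA synthetase that activates fatty acids for cutin. It was read at 106 and 195 CPM in stk and at 101.3 and 121 CPM in wild type. Only stk replicate 2 stood above the rest, and the other 3 libraries lay close together. Its log2 fold change of 0.44 ± 0.45 (SE) had the lowest p among the members (edgeR adjusted p = 1). Without stk replicate 2 it was -0.073.

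CYP86A4 (AT1G01600) encodes a P450 of the family that hydroxylates the end carbon of fatty acids, and acts in the cutin of flowers. Its level was 8.54 and 38.8 CPM in stk and 22.9 and 11.5 CPM in wild type. The stk replicates held both the lowest and the highest value, so the spread within stk covered the whole wild-type range. The log2 fold change was 0.48 ± 0.89 (SE) with all libraries and -1.01 without stk replicate 2. CYP77A6 (AT3G10570) encodes the P450 that adds a mid-chain hydroxyl group to these acids in flowers, and its values were much tighter. It stood at 43.0 and 73.1 CPM in stk and at 52.5 and 63.3 CPM in wild type, with the wild-type values inside the stk range. Its log2 fold change was 0.0062 ± 0.46 (SE).

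The acyltransferases of the GPAT family transfer acyl groups to glycerol-3-phosphate. GPAT6 (AT2G38110), needed for cutin of petals, was read at 114 and 182 CPM in stk and at 116 and 152 CPM in wild type. Replicate 1 gave nearly the same value in both genotypes, and replicate 2 was higher in both. GPAT4 (AT1G01610), which acts with GPAT8 in cutin of leaves and stems, stood at 78.4 and 106 CPM in stk and at 84.2 and 84.6 CPM in wild type. GPAT8 (AT4G00400) was much lower, at 6.47 and 18.2 CPM in stk and at 1.44 and 18.5 CPM in wild type. Wild-type replicate 1 held only 8 GPAT8 reads, with an exact Poisson 95% interval of 3.45 to 15.8 reads that covers counting error only, and stood below the other 3 libraries. Without that library the log2 fold change of GPAT8 was -0.55, against 0.31 with it, and without wild-type replicate 2 it was 3.10.

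DCR (AT5G23940, named PEL3 in the TAIR10.1 gene table) encodes an acyltransferase of the HXXXD type that is needed to build dihydroxypalmitate into the polymer. It was the most abundant member, at 384 and 600 CPM in stk and at 346 and 537 CPM in wild type. Replicate 2 was the higher library in both genotypes, and each stk value lay slightly above the wild-type value of the same number. Its log2 fold change was 0.16 ± 0.45 (SE).

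ABCG11 (AT1G17840), the transporter that exports cutin and wax precursors, was the steadiest member. It stood at 353 and 361 CPM in stk and at 378 and 294 CPM in wild type, with both stk values inside the wild-type range. Its log2 fold change of 0.089 ± 0.39 (SE) had a smaller standard error than all but 2.41% of the genes tested. BDG1 (AT1G64670) encodes a hydrolase of the epidermal wall that is needed for a normal cuticle. It was read at 70.9 and 42.5 CPM in stk and at 67.1 and 39.8 CPM in wild type, and was the single member for which replicate 1 exceeded replicate 2 in stk and in wild type alike. Both ABCG11 and BDG1 overlap genes annotated on the other strand, from which their reads cannot be told apart with an unstranded kit. The partner of BDG1, MGL (AT1G64660), had at most 32 reads in any library, and the partner of ABCG11, AT1G17850, had 41 and 127 reads in stk and 84 and 192 reads in wild type.

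SHN1 (AT1G15360) encodes a factor with an AP2/ERF domain that activates cuticle genes when overexpressed. It had 0 and 1 reads in stk and 0 and 0 reads in wild type, and no fold was computed. A count of 0 allows up to 0.744 CPM in stk replicate 1, 0.521 CPM in wild-type replicate 1 and 0.293 CPM in wild-type replicate 2, each worth 3 counts. Its relatives were read unequally. SHN3 (AT5G25390) stood at 226 and 242 CPM in stk and at 229 and 305 CPM in wild type, with a log2 fold change of -0.19 ± 0.39 (SE), while SHN2 (AT5G11190) had no reads.

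Levels per kilobase of exon ordered the members from DCR down to SHN1. DCR averaged 240 CPM per kb over the 4 libraries and ABCG11 averaged 108 CPM per kb, and their ranges overlapped neither each other nor that of the next gene. GPAT6 (63.6 CPM per kb), GPAT4 (46.0), LACS2 (45.6), BDG1 (29.7) and CYP77A6 (27.7) followed, and each of these overlapped its neighbour in the order. CYP86A4 averaged 8.79 CPM per kb and GPAT8 5.57 CPM per kb, with overlapping ranges that lay below that of CYP77A6. Per exon length, DCR stood at the 97.8th percentile of all genes tested, ABCG11 at the 93.8th, CYP86A4 at the 35.8th and GPAT8 at the 24.4th. The 10 genes together took 0.112% and 0.162% of all counts in stk and 0.113% and 0.141% in wild type.

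**Figure D3:**
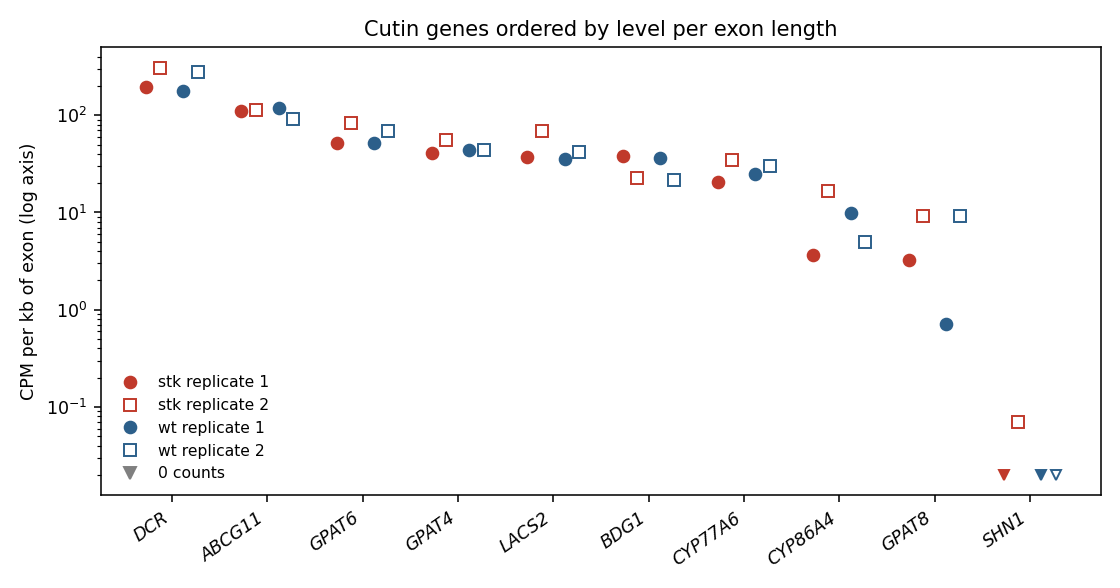
CPM per kb of exon on a log axis for the 10 cutin genes, ordered by their mean over the 4 libraries, with stk points left of wild-type points and triangles for 0 counts. DCR lies above all other members in every library, between 178 and 308 CPM per kb. The ranges of GPAT6, GPAT4, LACS2 and BDG1 each overlap that of the next gene in the order, and that of CYP77A6 does not.

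Values of the members also differed between replicates. In both genotypes replicate 2 was higher than replicate 1 for 6 of the 9 genes (CYP77A6, GPAT4, GPAT6, GPAT8, LACS2 and DCR), beside 6250 of 18092 genes tested. The median absolute log2 difference between replicates of the 9 genes was 0.74 in stk and 0.40 in wild type, beside 0.76 and 0.70 over all genes tested. All 9 log2 fold changes were positive, where 45.8% of all genes were, but this rested on single libraries: without stk replicate 2 only 2 of the 9 were positive and the median was -0.21, and without wild-type replicate 1 5 of the 9 were positive. Wax synthesis genes differed more between the wild-type replicates. The 11 tested genes of a wax list had a median absolute replicate difference of 1.375 in wild type and 0.52 in stk, and 5 were higher in replicate 1 in both genotypes.

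**Figure D4:**
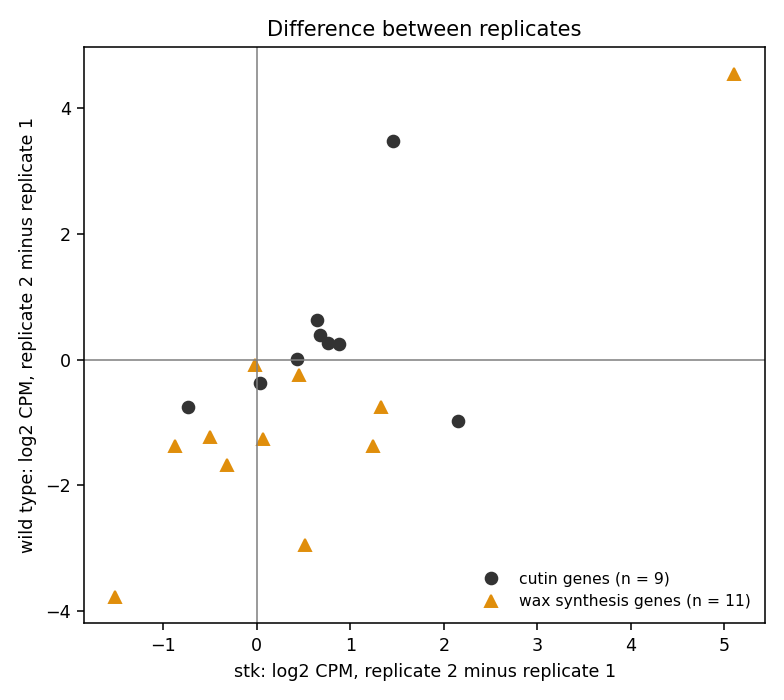
Log2 CPM of replicate 2 minus replicate 1 in stk (horizontal axis) and in wild type (vertical axis), with a point for each of 9 cutin genes (circles) and 11 wax synthesis genes (triangles). Of the cutin genes 6 lie in the upper right quadrant, higher in replicate 2 in both genotypes, and 1 of the wax genes does.

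Other enzymes of cutin synthesis, taken from a list chosen with earlier results of these data known, included genes with larger differences. The median log2 fold change of its 8 tested genes was 0.77 (0.51 without stk replicate 2), and 7 were positive, where 45.8% of all genes were. None passed edgeR's adjusted threshold, while 2 lay higher in stk at an unadjusted p under 0.05. That p was reached by 3.36% of all genes, counting both directions. CYP86A7 (AT1G63710), a relative of CYP86A4, stood at 18.6 and 45.2 CPM in stk and at 2.88 and 4.04 CPM in wild type. Both stk values lay above both wild-type values, and the log2 fold change was 3.20 with an SE of 0.89 (edgeR adjusted p = 0.836). DESeq2 called it on all loci (adjusted p = 0.0412) and not on the genes kept by the edgeR filter (adjusted p = 0.0664), and the fold stayed between 2.41 and 3.72 on the log2 scale with any 1 library left out in edgeR. LACS3 (AT1G64400), an acyl-CoA synthetase, stood at 266 and 21.1 CPM in stk and at 21.1 and 0.55 CPM in wild type. Its log2 fold change of 3.76 was 0.99 when stk replicate 1 was left out and 8.00 when wild-type replicate 1 was left out. LACS3 did not pass edgeR with all libraries kept, genotype as the single term and low counts filtered (adjusted p = 1). It did with a term for the replicate number (log2 fold change 4.26, adjusted p = 0.000794) and with no filter on low counts (adjusted p = 3.72e-09). With no filter the log2 fold change stayed at 3.76, so the difference itself was no larger.

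The remaining genes of that list differed less. LACS1 (AT2G47240), which acts in wax and cutin synthesis, stood at 389 and 466 CPM in stk and at 224 and 302 CPM in wild type. FATB (AT1G08510), the thioesterase that releases palmitate in plastids, stood at 202 and 218 CPM in stk and at 133 and 103 CPM in wild type. The stk values lay above the wild-type values for both, with log2 fold changes of 0.70 ± 0.40 and 0.83 ± 0.39 (SE) that did not pass edgeR (adjusted p = 1 for each). HTH (AT1G72970), needed to form dicarboxylic acids, stood at 241 and 398 CPM in stk and at 87.8 and 259 CPM in wild type, with overlapping groups. LACS4 (AT4G23850) and CYP86A8 (AT2G45970) had log2 fold changes of 0.25 and 0.20, and CYP77A4 (AT5G04660) had no reads.

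CYP86A genes were set side by side because they are close in sequence. CYP86A8 was the most read of the 4 in every library, at 92.6 and 75.3 CPM in stk and at 78.3 and 67.6 CPM in wild type. CYP86A2 (AT4G00360), known for cutin of leaves, stood at 14.2 and 26.4 CPM in stk and at 34.5 and 12.4 CPM in wild type. CYP86A7 made up 13.9% and 24.3% of the summed CPM of the 4 genes in stk and 2.08% and 4.23% in wild type, while CYP86A4 made up 6.37% and 20.9% in stk and 16.5% and 12.02% in wild type. The CYP86A7 shares did not overlap between genotypes and those of CYP86A4 did.

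**Figure D5:**
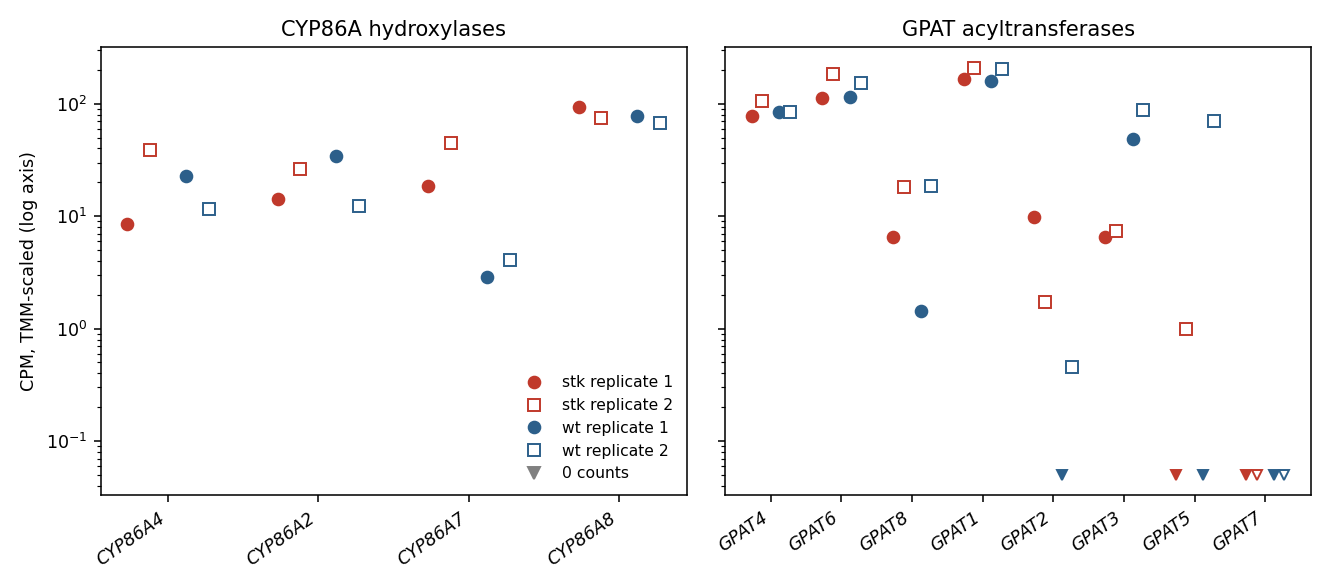
CPM on a log axis for 4 CYP86A genes (left) and the 8 GPAT genes of this family (right) in each library, with stk points left of wild-type points, filled circles for replicate 1, open squares for replicate 2 and triangles for 0 counts. CYP86A7 and the little-read GPAT2 lie higher in stk and GPAT3 lower, while GPAT4, GPAT6, GPAT8 and CYP86A4 overlap between genotypes.

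Within the GPAT family GPAT4, GPAT6 and GPAT8 overlapped between genotypes, and their relatives GPAT3 (AT4G01950) and GPAT2 (AT1G02390), outside the chosen members, did not. A lack of overlap, in either direction, was seen in 32.4% of all genes tested. GPAT3 stood at 6.47 and 7.40 CPM in stk and at 48.9 and 88.6 CPM in wild type. Its stk values were both under the lower wild-type value, and the log2 fold change was -3.30 with an SE of 0.57 (edgeR adjusted p = 0.329), and DESeq2 called it lower (adjusted p = 0.000215). The log2 fold change of GPAT3 was between -3.65 and -2.80 with any 1 library left out. GPAT3 passed the edgeR threshold with a term for the replicate number (adjusted p = 0.0105) and with no filter on low counts (adjusted p = 0.000108). With no filter its log2 fold change was -3.29, so the difference itself was no larger. GPAT2 had 38 and 21 reads in stk and 0 and 5 reads in wild type, which is 9.83 and 1.73 CPM against 0 and 0.46 CPM. Its stk values lay above the wild-type ones, with a log2 fold change of 4.47 and a wide SE of 2.79 (edgeR adjusted p = 1). GPAT1 (AT1G06520), known from the anther, stood at 165 and 209 CPM in stk and at 159 and 203 CPM in wild type. GPAT5 (AT3G11430), an enzyme of the related polyester suberin, had 0 and 12 reads in stk and 0 and 768 reads in wild type, so that nearly all came from 1 library. Whether the difference of GPAT3 exceeds that of GPAT4, GPAT6 or GPAT8 was not tested.

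CYP86A4 and GPAT4 are neighbours on chromosome 1 of TAIR10.1 with no locus of the count table between them, and they are transcribed towards each other. CYP86A2 and GPAT8 lie in the same arrangement on chromosome 4 with 5 loci between them, 3 of which are protein coding. The coding sequences of CYP86A4 and CYP86A2 were 83.2% identical over aligned bases and those of GPAT4 and GPAT8 83.2%, computed from the reference. The longest identical runs were 50 and 35 bases, so short reads of these pairs could in part be split or lost in counting. With GPAT4 and GPAT8 counted as 1 gene the log2 fold change was 0.15 (edgeR adjusted p = 1), beside 0.13 for GPAT4 alone.

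Genes of export and assembly outside the chosen members were mixed in direction. The median log2 fold change of the 7 tested genes was 0.076, 4 being positive (0.033 with a term for the replicate number, and between 0.13 and 0.27 with any 1 library left out), and none passed the edgeR threshold. ABCG32 (AT2G26910), a transporter of cutin precursors, stood at 245 and 225 CPM in stk and at 250 and 195 CPM in wild type. ABCG12 (AT1G51500), which works with ABCG11 in wax export, stood at 625 and 309 CPM in stk and at 393 and 127 CPM in wild type, higher in replicate 1 in both genotypes. The lipid transfer protein genes LTPG1 (AT1G27950) and LTPG2 (AT3G43720) had log2 fold changes of 0.46 and 0.13.

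LTL1 (AT3G04290), a GDSL-type lipase gene, lay the other way. It had 0 and 81 reads in stk and 204 and 1918 reads in wild type, which is 0 and 6.66 CPM against 36.7 and 176 CPM. Both stk values were below both wild-type values, with an edgeR log2 fold change of -4.85 ± 1.35 (SE; adjusted p = 0.829). DESeq2 did not call it (adjusted p = 0.958), and without wild-type replicate 2 its edgeR log2 fold change was -3.38. LTL1 passed edgeR with no filter on low counts (adjusted p = 4.2e-12) and with a term for the replicate number (adjusted p = 0.00156). With no filter its log2 fold change was -4.83, so the difference itself was no larger. Without wild-type replicate 1 the log2 fold change was -5.53. Without stk replicate 2 the lone stk library held no LTL1 read, so no fold is given.

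Regulators of the cuticle and genes of epidermal identity gave no call in edgeR, DESeq2 or limma-voom. Of 8 tested regulators 3 had a positive log2 fold change (median -0.10), and of 9 tested epidermal genes 4 did (median -0.35), with 0 of either list at an edgeR p under 0.05. The regulator median was 0.049 without wild-type replicate 2, -0.28 without wild-type replicate 1, -0.26 without stk replicate 2, -0.19 in limma-voom and -0.035 among genes averaging 5 CPM or more. The epidermal median was -0.060 without stk replicate 1, 0.037 without wild-type replicate 2 and -0.13 among genes averaging 5 CPM or more. MYB16 (AT5G15310), a factor of cuticle formation in petals, stood at 7.76 and 30.3 CPM in stk and at 7.56 and 1.65 CPM in wild type, and its log2 fold change was 2.06 ± 1.26 (SE; edgeR adjusted p = 1). MYB94 (AT3G47600), a wax regulator, stood at 42.7 and 46.5 CPM in stk and at 71.8 and 65.7 CPM in wild type. The homeodomain genes ATML1 (AT4G21750) and PDF2 (AT4G04890), which specify the epidermis, had log2 fold changes of 0.11 and 0.18. ATML1 stood at 84.9 and 95.5 CPM in stk and at 79.4 and 88.0 CPM in wild type, and PDF2 at 156 and 140 CPM in stk and at 125 and 136 CPM in wild type. FDH (AT2G26250), an epidermal fatty acid elongase, stood at 280 and 244 CPM in stk and at 338 and 336 CPM in wild type. The 10 epidermal genes summed to 656 and 650 CPM in stk and to 693 and 780 CPM in wild type.

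Wax synthesis shares its fatty acid supply with cutin. CER1 (AT1G02205), which acts in alkane formation, had the largest difference of the 11 wax genes, at 472 and 495 CPM in stk and at 65.1 and 26.9 CPM in wild type, and was called by DESeq2 and limma-voom but not by edgeR (log2 fold change 3.40 ± 0.54 SE; edgeR adjusted p = 0.329). CER1 passed edgeR with no filter on low counts (adjusted p = 9.38e-08) and with a term for the replicate number (adjusted p = 0.000737). With no filter its log2 fold change was 3.41, so the difference itself was nearly unchanged. Without wild-type replicate 1 the log2 fold change was 4.19. The next wax gene by fold, CER4 (AT4G33790), which makes primary alcohols, stood at 954 and 1368 CPM in stk and at 804 and 105 CPM in wild type. PAS2 (AT5G10480), a dehydratase of fatty acid elongation, stood at 169 and 167 CPM in stk and at 109 and 102 CPM in wild type. The median of the wax list was 0.58, which became 1.43 when wild-type replicate 1 was left out and 0.20 when wild-type replicate 2 was. Whether wax and cutin genes differ in their response was not tested.

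Most suberin genes had few or no reads. Of 13 genes 3 passed the filter on low counts, and 4 had no reads in any library, among them CYP86A1 (AT5G58860), the hydroxylase of root suberin. KCS2 (AT1G04220) and KCS20 (AT5G43760), fatty acid elongases also used for wax, made up most of the list's reads, with log2 fold changes of 0.63 and -0.0082. ABCG20 (AT3G53510), a transporter of suberin precursors, stood at 0 and 6.33 CPM in stk and at 13.1 and 8.45 CPM in wild type.

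The 5 genes whose log2 CPM over the 4 libraries, centred per gene, lay nearest to the mean of the 9 cutin genes were AT1G65010 (a WEB family protein), AT3G03570, RALFL24 (AT3G23805), APY2 (AT5G18280) and FKBP15-1 (AT3G25220). Their Euclidean distances were 0.058 to 0.094 among 15579 genes that averaged 5 CPM or more. The mean profile itself was -0.24 and 0.46 in stk and -0.28 and 0.048 in wild type, so stk replicate 2 was the highest library. Among the members GPAT6 lay nearest to that profile (0.13) and GPAT8 farthest (2.41). With 4 libraries such likeness describes these samples only.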

How the data were processed

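The labels' protocols name a TruSeq RNA kit, a kind that is unstranded. The authors deposited raw read counts per gene. The submitters' processing notes list featureCounts 1.6.3, STAR 2.7.0 and Trimmomatic 0.38 without saying what each did. The genome build is not given in the sources used here, nor are the annotation and the treatment of multi-mapping reads. The TAIR10.1 gene table held each of the 37051 loci and was used for names, exon lengths, gene order and overlaps.

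The counts were tested with edgeR 4.0.16 in R 4.3.3 (TMM, filterByExpr, quasi-likelihood test, genotype as the single term, Benjamini-Hochberg over all 18092 genes kept, threshold 0.05). Standard errors and 95% intervals came from the F statistic. DESeq2 1.42.0 (all loci, default filtering) and limma-voom (limma 3.58.1) were alternatives, with other scalings, filters, a replicate block and each library left out. Members, gene lists and tests were chosen with earlier results of these data known. Of 118 list entries, 4 were left out because the gene table did not give that name. Single-gene CPM used TMM-scaled library sizes. Sums over marker lists, the upper limits for SHN1 and shares of counts used raw totals. Named genes were STK, the 10 members, genes of the cutin, regulator, GPAT and epidermis lists, and of other lists those called or the 2 with the lowest p. UMAMIT11, CER4, KCS20, CYP86A1 and ALE1, outside that rule, were chosen after their values were seen. P-values rest on 2 samples per genotype, with the spread of each gene estimated partly from the other genes. The tests were checked on simulated data.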

Additional observations from a re-analysis of the deposited data

How the results depend on the processing

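None of the cutin genes passed an adjusted p of 0.05 under any alternative run, and none had an unadjusted p under 0.05. Over all genes edgeR called 1, against 168 with DESeq2, 155 with DESeq2 on the genes kept by the edgeR filter (added after seeing the data, as were the alternatives for named genes that are not members), 37 with limma-voom, 275 with all loci, 0 among genes averaging 5 CPM or more, 169 with a replicate block and 5 to 198 with 1 library left out. The sign of the members' folds was not fixed. The median of 0.14 lay between -0.21 and 0.46 with 1 library left out. With 1 library left out the log2 fold change ranged from -1.01 to 1.202 for CYP86A4, -0.44 to 0.36 for CYP77A6, -0.11 to 0.35 for GPAT4, -0.25 to 0.46 for GPAT6, -0.64 to 3.10 for GPAT8, -0.073 to 0.84 for LACS2, -0.21 to 0.52 for DCR, -0.31 to 0.52 for BDG1 and -0.073 to 0.30 for ABCG11. Without stk replicate 1 the median was 0.46 and BDG1 -0.31. CYP77A6, at 0.0062, was -0.0063 with DESeq2 size factors, -0.0061 with DESeq2, -0.0059 with DESeq2 on the filtered genes, -0.0091 among genes averaging 5 CPM or more and -0.037 with the replicate block. Other cases with the opposite sign were ABCG11 (-0.073) and BDG1 (-0.24) without wild-type replicate 2, and CYP77A6 (-0.097), GPAT6 (-0.019), GPAT8 (-0.55) and DCR (-0.10) without wild-type replicate 1. In those fits the lone library is assumed to vary like the pair of the other genotype, and the cause was not tested. The labels do not tie a replicate number to a shared batch. Deviations of same-numbered libraries correlated at 0.245 across genes, and the replicate block changed no call of a member. Of 168 list medians under alternatives 17 moved past the spread between replicates, all but 2 of them with a library left out. Outside the members, LACS3, GPAT3, LTL1 and CER1 passed edgeR with the replicate block and with no filter on low counts. They did not with all libraries kept, genotype as the single term and low counts filtered. With no filter their folds hardly moved while the genes called rose from 1 to 275. The lower p-values there came with nearly unchanged differences, and the estimated errors of that run were not compared. Depth limits SHN1 in every library.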

Other observations

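AT5G33370, a locus annotated as a lipase of the GDSL type and left out of the export list because the gene table gives it no other name, stood at 46.1 and 148 CPM in stk and at 0.72 and 24.6 CPM in wild type. Both stk values lay above both wild-type values (log2 fold change 2.91 ± 1.24 SE; edgeR adjusted p = 1), and it was chosen after its values were seen. CFL1's listed locus AT2G33510, left out for the same reason, stood at 49.9 and 44.6 CPM in stk and at 25.2 and 34.2 CPM in wild type. The phloem gene SEOR1 (AT3G01680), a protein of sieve elements, stood at 70.9 and 48.4 CPM in stk and at 2.699 and 4.96 CPM in wild type, and DESeq2 called it higher while edgeR did not (adjusted p = 0.329). Beside it APL (AT1G79430), a factor of phloem identity, stood at 86.7 and 47.7 CPM in stk and at 114 and 61.1 CPM in wild type. The cellulose synthase genes of secondary walls lay highest in stk replicate 1. CESA8 (AT4G18780) stood at 197 and 26.2 CPM in stk and at 22.0 and 5.69 CPM in wild type. CESA4 (AT5G44030) stood at 594 and 41.1 CPM in stk and at 76.8 and 23.8 CPM in wild type. Among fruit genes AGL8 (AT5G60910), a MADS-box factor of the valves, stood at 19.4 and 27.6 CPM in stk and at 2.52 and 6.06 CPM in wild type. RPL (AT5G02030), a factor of the replum, stood at 46.6 and 42.0 CPM in stk and at 75.6 and 41.1 CPM in wild type. The seed storage protein genes CRC (AT4G28520) and CRA1 (AT5G44120) were read mainly in wild-type replicate 1. CRC stood at 1.81 and 0 CPM in stk and at 95.2 and 0.092 CPM in wild type, and CRA1 at 10.4 and 0 CPM in stk and at 48.8 and 0.73 CPM in wild type. The seed coat markers summed to 167 and 199 CPM in stk and to 82.7 and 156 CPM in wild type. Of these MUM2 (AT5G63800), a galactosidase of mucilage, stood at 16.0 and 19.3 CPM in stk and at 5.76 and 0.37 CPM in wild type, and MUM4 (AT1G53500), a rhamnose synthase, at 96.3 and 77.5 CPM in stk and at 32.4 and 74.4 CPM in wild type. The 5 green tissue markers summed to 6147 and 6233 CPM in stk and to 9645 and 4013 CPM in wild type. Of these CAB3 (AT1G29910), a light-harvesting protein gene, stood at 277 and 433 CPM in stk and at 168 and 80.7 CPM in wild type, and RCA (AT2G39730), Rubisco activase, at 527 and 635 CPM in stk and at 1349 and 323 CPM in wild type.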
